A study of Homo sapiens with 6 samples.

Results

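Glycolysis, glucose uptake, pyruvate entry and glycogen genes were followed after knockdown of PRKCN in MM.1S, a human multiple myeloma cell line. The 35 genes were listed by symbol and by the step they serve. No measured value enters the rule, but the list was drawn up with earlier results of these data known. All 35 were present among the 21850 genes of the deposited count table, so no symbol was absent, and 34 passed the filter on low counts. RNA-seq compared 3 libraries of MM.1S cells infected with a scramble hairpin (shNT, labelled WT) with 3 libraries of MM.1S cells infected with a PRKCN hairpin (shPRKCN, labelled PRKCN knockdown), all collected on day 3. Every group was 1 cell line and 1 hairpin treatment delivered by lentivirus. It is not stated whether the cells for sequencing were sorted for the virus marker, nor whether the libraries of a group came from separate cultures, so the p-values measure the spread between these libraries, which may be technical.

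Glycolysis takes glucose into the cell through facilitative transporters, traps it by phosphorylation, cleaves the phosphorylated sugar into triose phosphates and converts these to pyruvate with a net gain of ATP. Pyruvate is then reduced to lactate and exported together with a proton, or carried into mitochondria and oxidised by the pyruvate dehydrogenase complex, which pyruvate dehydrogenase kinases switch off by phosphorylation. Many steps are served by several isoenzymes from separate genes, and proliferating myeloma cells are known for high glucose uptake, the basis of imaging the disease with a labelled glucose analogue.

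Differential expression was taken from edgeR's quasi-likelihood test on 13971 genes. A gene is written as called where its log2 fold change (log2FC, shPRKCN minus shNT, given ± its standard error) was beyond 0.58 and its Benjamini-Hochberg adjusted p was under 0.05. PRKCN, listed as PRKD3, had 1272, 1298 and 1216 CPM in shNT against 535, 491 and 527 CPM in shPRKCN cells, a log2FC of −1.29 ± 0.034. CPM are read counts scaled by library size and by edgeR's TMM factor. Library totals ran from 35625564 to 37730003 counts. All 8 plasma cell markers had at least 1242 counts in every library, and IRF4, XBP1 and TNFRSF17 were called lower in shPRKCN cells. At an adjusted p under 0.05 by edgeR, 6 of the 8 were lower and 1 was higher. The lower ones included PRDM1, POU2AF1 and MZB1, inside the fold limit (log2FC −0.54, −0.35 and −0.23). SDC1 was the higher one (0.18), and CD38 did not pass 0.05. The summed level of the 8 plasma cell markers was 3964 to 4029 CPM in shNT and 2712 to 2837 CPM in shPRKCN libraries. The 4 T cell markers summed to 10.7 to 12.01 CPM in shNT and 27.5 to 31.3 CPM in shPRKCN libraries, nearly all of it CD3E, whereas CD3D and CD3G had at most 1 count in any library. B cell and stromal markers summed to at most 0.267 CPM per list in any library. The 4 myeloid markers summed to 0.320 to 0.878 CPM in shNT and 1.55 to 1.69 CPM in shPRKCN libraries, with S100A9 called higher (log2FC 1.89 ± 0.383). HBB, the only listed erythroid marker of 4, had 2.18 to 3.87 CPM in shNT and 0.921 to 1.10 CPM in shPRKCN libraries and was called lower (log2FC −1.65 ± 0.241). The part of these shifts in the results below was not tested. In bulk RNA, fewer cells that express a gene and less of its RNA per cell cannot be told apart.

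After PRKCN knockdown most of the glycolytic genes were lower. Of the 34 members tested, 19 were called lower, against 10.6% of all genes tested, and 0 were called higher, against 6.15% of all genes. At the adjusted p alone, 29 members were lower and 3 higher, whereas 27.8% of all genes were lower and 26.5% higher at that limit. Their median was −0.65, beside 0.0012 over the genes tested, on the log2FC scale, and members ranged from −2.09 to 0.53. DESeq2 also called 0 members higher. By sign alone, 30 tested members had a negative and 4 a positive log2FC, beside 6971 and 7000 of all genes tested. The 4 were SLC16A3, PFKFB2, PFKM and PDHA1, the last of which did not pass 0.05 after adjustment. The highest shPRKCN library lay below the lowest shNT library for 30 of the 35 genes, against 29.8% of all genes tested.

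The summed level of the 35 genes was 7667, 7498 and 7731 FPKM in shNT against 4599.9, 4718 and 4621 FPKM in shPRKCN cells (fragments scaled by gene length and library size, so that genes of different length can be compared). The shPRKCN libraries were all lower, with a mean of 60.9% of the shNT mean (p = 0.1 by a 2-sided exact permutation test over the 6 libraries, which can go no lower). These genes took 1.96% ± 0.0237 (SD, n = 3) of all counts in shNT and 1.20% ± 0.0160 (SD, n = 3) in shPRKCN cells. GAPDH and LDHA together made up 53.8% of the summed FPKM in shNT cells, so the sum mostly follows these abundant messages. Of the 10 members with a mean shNT level of at least 100 FPKM, 8 were called lower, and of the 24 tested members under that level 11 were. Over all levels 10.6% of genes tested were called lower, and the shares above and under 100 FPKM were not computed. Among the shPRKCN libraries, the second had the highest normalised level for 21 of the 30 members that lay below in all shPRKCN libraries, and its members' median stood at −0.55 on the log2 scale against the shNT mean, beside −0.68 and −0.66 for the first and the third. How often the second library was the highest over all genes was not computed.

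**Figure D1:**
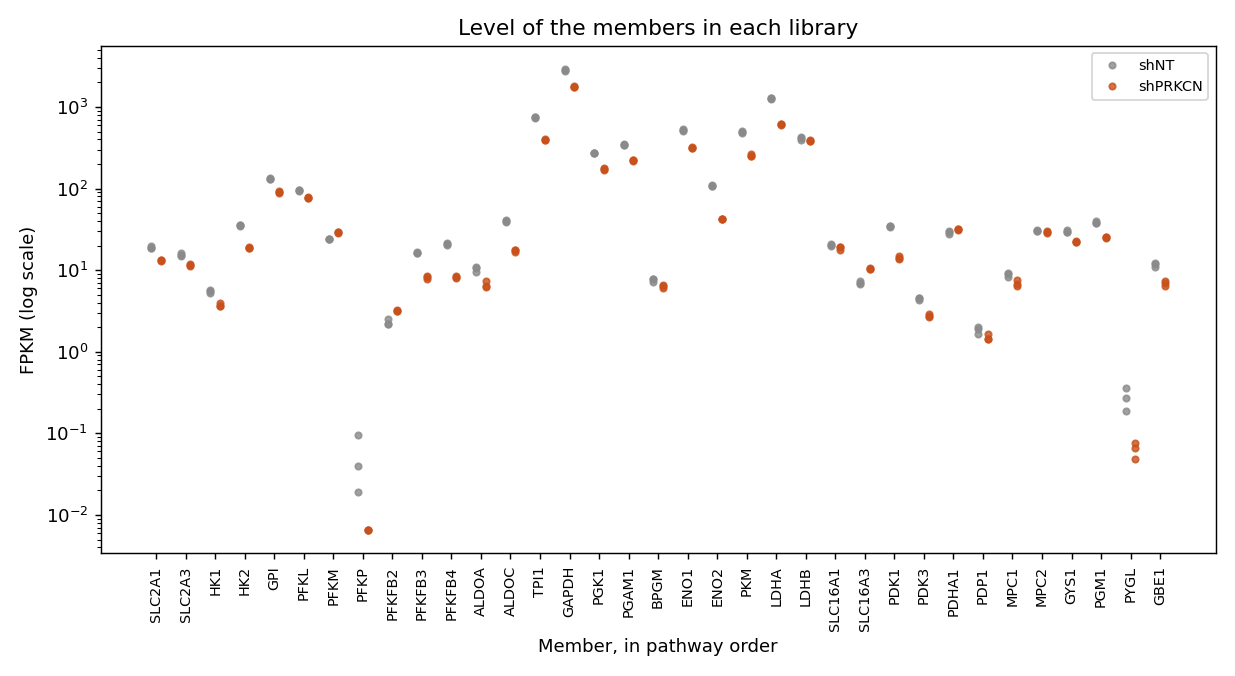
Level of each of the 35 genes in each library, in FPKM on a log axis, with the genes in pathway order (grey, 3 shNT libraries; orange, 3 shPRKCN libraries). Levels span from PFKP, at most 0.0953 FPKM, to GAPDH, at 2917 FPKM in the highest shNT library, and most orange points lie below the grey ones.

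Promoter windows from RefSeq (GRCh38.p14, 250 bases before to 50 after an annotated transcript start) were matched by symbol for 31 of the 35 genes. A single window per gene was used, the first listed, and 12 of these genes have further windows that were not searched. For 5 genes the window's start lies over 1000 bases inside the RefSeq gene span, by 6333 bases in PFKFB4 and 10501 bases in SLC16A3, which has 5 windows, so that other starts of these genes are not described. The windows were searched on both strands for ACGTG and GCGTG, the cores of the element bound by hypoxia-inducible factors, and for CACGTG, the E-box bound by MYC and related factors, which contains the first core. The ACGTG core was present in 9 of 19 promoters of genes called lower (47.4%), in 2 of 12 of the other matched members (16.7%) and in 21.6% of 27305 genes' first windows of the same length. GCGTG was present in 10 of 19, 6 of 12 and 36.3% of these, and CACGTG in 3 of 19, 0 of 12 and 7.43%. These matches describe the letters in the window and were not tested. HK1, TPI1, PGAM1, PDK1, PGM1 and PYGL, all called lower, held no match to any of these cores. Nor did PFKM, PFKP, SLC16A3 and MPC2 among the other matched members. The 27305 windows were not limited to genes expressed here and were not matched for base content. Shown are the promoters of the 3 called genes with the largest fall (PYGL, ENO2 and PFKFB4) and of the gene with the highest fold change (SLC16A3), and that of LDHA, which was added after the matches were seen because it held the most. They lie at chr14:50944434-50944733 (minus strand), chr12:6914330-6914629 (plus strand), chr3:48556754-48557053 (minus strand), chr17:82228185-82228484 (plus strand) and chr11:18394313-18394612 (plus strand), are written 5′ to 3′ in the sense of the gene, and have matches to any of these cores in capitals.
PYGL: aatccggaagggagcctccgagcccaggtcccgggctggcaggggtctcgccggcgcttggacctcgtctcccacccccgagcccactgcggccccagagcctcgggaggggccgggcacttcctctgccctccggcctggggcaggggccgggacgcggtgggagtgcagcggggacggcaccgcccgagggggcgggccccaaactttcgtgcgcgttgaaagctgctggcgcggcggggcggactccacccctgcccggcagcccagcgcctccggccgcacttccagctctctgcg
ENO2: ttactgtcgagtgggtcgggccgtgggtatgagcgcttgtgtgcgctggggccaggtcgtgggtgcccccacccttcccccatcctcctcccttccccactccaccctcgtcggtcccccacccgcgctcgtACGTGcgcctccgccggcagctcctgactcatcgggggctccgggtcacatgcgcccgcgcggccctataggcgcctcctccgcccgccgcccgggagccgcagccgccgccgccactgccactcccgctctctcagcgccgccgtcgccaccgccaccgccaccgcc
PFKFB4: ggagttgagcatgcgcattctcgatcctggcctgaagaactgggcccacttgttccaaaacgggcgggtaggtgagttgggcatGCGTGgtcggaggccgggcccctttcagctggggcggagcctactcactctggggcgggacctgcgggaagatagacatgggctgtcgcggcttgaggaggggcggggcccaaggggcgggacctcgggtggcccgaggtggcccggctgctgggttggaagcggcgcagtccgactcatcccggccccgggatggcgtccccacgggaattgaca
SLC16A3: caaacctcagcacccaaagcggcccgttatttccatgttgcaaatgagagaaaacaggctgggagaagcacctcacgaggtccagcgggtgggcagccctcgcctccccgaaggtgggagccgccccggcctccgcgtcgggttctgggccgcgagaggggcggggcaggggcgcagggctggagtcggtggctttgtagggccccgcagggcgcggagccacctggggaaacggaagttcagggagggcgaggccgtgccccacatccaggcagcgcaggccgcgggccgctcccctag
LDHA: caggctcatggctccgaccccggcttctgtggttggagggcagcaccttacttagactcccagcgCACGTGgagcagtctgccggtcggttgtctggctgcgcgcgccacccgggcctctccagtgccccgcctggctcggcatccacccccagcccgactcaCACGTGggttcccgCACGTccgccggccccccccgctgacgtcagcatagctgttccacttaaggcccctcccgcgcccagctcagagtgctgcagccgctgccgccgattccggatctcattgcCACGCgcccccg
LDHA held CACGTG at 2 places and 5 matches to ACGTG over both strands, of which each CACGTG gives 1 per strand. In the windows shown, ENO2 held 1 ACGTG, PFKFB4 1 GCGTG, and PYGL and SLC16A3 held 0 matches to these letters.

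Both glucose transporter genes and both hexokinase genes were lower in every shPRKCN library, and the hexokinase genes were called. SLC2A1, which encodes GLUT1, the main glucose transporter of many dividing cells, had 18.9, 19.5 and 18.7 FPKM in shNT against 12.97, 13.4 and 13.3 FPKM in shPRKCN cells. The groups did not overlap, and the log2FC of −0.55 ± 0.049 lay inside the fold limit. SLC2A3, which encodes the high-affinity transporter GLUT3, had a log2FC of −0.45 ± 0.050, also without overlap and also inside the limit. The adjusted p was 9.5e-16 for SLC2A1 and 4.3e-12 for SLC2A3 by edgeR. HK2, a mitochondrion-bound hexokinase that is induced in many tumours, had 35.4, 35.4 and 35.2 FPKM in shNT against 18.7, 19.1 and 18.7 FPKM in shPRKCN cells. Every shPRKCN library was thus lower than every shNT library, and HK2 decreased with a log2FC of −0.93 ± 0.037 (adjusted p = 1.2e-32 by edgeR). HK1, the constitutive hexokinase, had 5.71, 5.29 and 5.59 FPKM in shNT against 3.59, 3.91 and 3.64 FPKM in shPRKCN cells. Its log2FC of −0.59 ± 0.065 was called, but it fell inside the fold limit without shNT 1 (−0.57), without shPRKCN 1 (−0.56), without shPRKCN 3 (−0.57), with scaling by library size alone (−0.57) and by limma on log2(FPKM + 1), with or without a filter on low FPKM (−0.47), and on log2(FPKM + 0.1) (−0.56). GPI, the isomerase that turns glucose 6-phosphate into fructose 6-phosphate, had a log2FC of −0.56 ± 0.032, just inside the limit, and passed it at −0.59 without shPRKCN 2.

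At the committed step, neither PFKL nor PFKM was called by edgeR, and they had log2FC values of opposite sign. PFKL, the liver type and the most abundant, had 93.997, 95.1 and 96.5 FPKM in shNT against 77.9, 77.3 and 76.1 FPKM in shPRKCN cells, a log2FC of −0.32 ± 0.034. PFKM, the muscle type, had 24.2, 24.04 and 24.3 FPKM in shNT against 29.2, 28.8 and 29.6 FPKM in shPRKCN cells, and all shPRKCN libraries were above all shNT libraries (log2FC 0.25 ± 0.038). Both changes had an adjusted p under 0.05 by edgeR (4.1e-13 and 3.2e-08) and lay inside the fold limit. PFKP, the platelet type, had 14, 6 and 3 counts in shNT against 1, 1 and 1 counts in shPRKCN cells and did not pass the filter on low counts. It was called lower where it was tested without that filter, by edgeR (log2FC −2.84, adjusted p = 0.028) and by DESeq2 (log2FC −2.99, adjusted p = 0.041), sizes that rest on 1 count per shPRKCN library, and it was not called by limma on log2(FPKM + 0.1) (adjusted p = 0.094). The summed FPKM of the 3 isoenzymes was 89.02% of the shNT mean in shPRKCN cells.

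The bifunctional PFKFB enzymes set the level of fructose 2,6-bisphosphate, the main activator of phosphofructokinase 1, and PFKFB3 and PFKFB4 were called lower whereas PFKFB2 was not. PFKFB4, whose promoter is printed above, had 20.5, 21.4 and 21.2 FPKM in shNT against 8.24, 8.46 and 7.94 FPKM in shPRKCN cells. It decreased with a log2FC of −1.38 ± 0.044 (adjusted p = 3.2e-38 by edgeR), to 38.5% of the shNT level, with no overlap. PFKFB3, the isoenzyme with the highest ratio of kinase to phosphatase activity, had 16.7, 16.4 and 16.2 FPKM in shNT against 7.87, 8.28 and 8.56 FPKM in shPRKCN cells. It had a log2FC of −1.02 ± 0.047, again with no overlap. PFKFB2, known from heart, had 2.20, 2.53 and 2.18 FPKM in shNT against 3.29, 3.19 and 3.13 FPKM in shPRKCN cells and was higher in every shPRKCN library (log2FC 0.46 ± 0.060, adjusted p = 8.9e-10 by edgeR), inside the fold limit. PFKFB2 therefore made up 5.78% ± 0.420 (SD, n = 3) in shNT and 16.3% ± 0.564 (SD, n = 3) in shPRKCN cells of the summed FPKM of the 3 genes, and the sum itself stood at 49.4% of the shNT mean.

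Aldolase cleaves the doubly phosphorylated sugar. ALDOC, the aldolase best known from brain, had 39.4, 40.6 and 40.4 FPKM in shNT against 17.6, 17.7 and 16.7 FPKM in shPRKCN cells, and decreased with a log2FC of −1.23 ± 0.051 with no overlap. ALDOA, the aldolase of muscle and most other cells, had 9.52, 10.99 and 10.7 FPKM in shNT against 6.21, 7.30 and 6.34 FPKM in shPRKCN cells, with no overlap and a log2FC of −0.67 ± 0.079. The values of ALDOA are uncertain, since 99.9% of its span (chromosome 16 from 30064279 to 30070420 in GRCh38.p14) lies inside the protein-coding LOC112694756, to which 64, 52 and 59 counts were assigned in the shNT libraries beside 730, 874 and 865 for ALDOA. How the counting treated reads that fit both genes is not given in the sources used here, so whether ALDOA is really less abundant than ALDOC in these cells was not tested.

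From the triose phosphates to pyruvate, 7 of 8 genes were called lower and all 8 were lower at an adjusted p under 0.05, with a median log2FC of −0.71. From glucose uptake to aldolase, 6 of 12 tested genes were called lower, with a median of −0.58 on the same scale. Of all genes tested, 10.6% were called lower and 27.8% were lower at an adjusted p under 0.05. The difference between these stretches was not tested.

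TPI1, which interconverts the triose phosphates, had 744, 726 and 748 FPKM in shNT against 394, 409 and 394 FPKM in shPRKCN cells, a log2FC of −0.91 ± 0.033. GAPDH, which oxidises glyceraldehyde phosphate and is often used as a reference gene, had 2832, 2756 and 2917 FPKM in shNT against 1765, 1811 and 1765 FPKM in shPRKCN cells. It was the member with the highest level and ranked 22 of 21850 listed genes by mean shNT FPKM, yet every shPRKCN library was lower, at 61.96% of the shNT level (log2FC −0.69 ± 0.031, adjusted p = 6.8e-30 by edgeR). PGK1, the first ATP-yielding enzyme, had 275, 269 and 273 FPKM in shNT against 171, 178 and 173 FPKM in shPRKCN cells. PGAM1, which moves the phosphate group of phosphoglycerate, had 354, 339 and 346 FPKM in shNT against 219.6, 226 and 222 FPKM in shPRKCN cells. The log2FC values of these neighbouring steps were −0.67 ± 0.032 for PGK1 and −0.66 ± 0.033 for PGAM1. BPGM, which makes the side product bisphosphoglycerate, had a log2FC of −0.28 ± 0.077 (adjusted p = 0.0014 by edgeR), inside the fold limit.

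ENO2, the enolase best known from neurons, had 107, 108 and 109 FPKM in shNT against 41.9, 41.9 and 41.8 FPKM in shPRKCN cells. All shPRKCN libraries were far below the shNT libraries, at 38.2% of their level (log2FC −1.39 ± 0.037, adjusted p = 1.3e-42 by edgeR), and its promoter is among those printed above. ENO1, the general enolase, had 517, 504 and 529.7 FPKM in shNT against 315, 325 and 312 FPKM in shPRKCN cells, a smaller decrease on the log2 scale of −0.72 ± 0.033. PKM, the pyruvate kinase of dividing cells and muscle, had 483, 488 and 501 FPKM in shNT against 248, 264 and 251 FPKM in shPRKCN cells. It decreased with no overlap between the groups, with a log2FC of −0.97 ± 0.033. The gene-level counts do not separate the PKM1 and PKM2 splice forms.

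**Figure D2:**
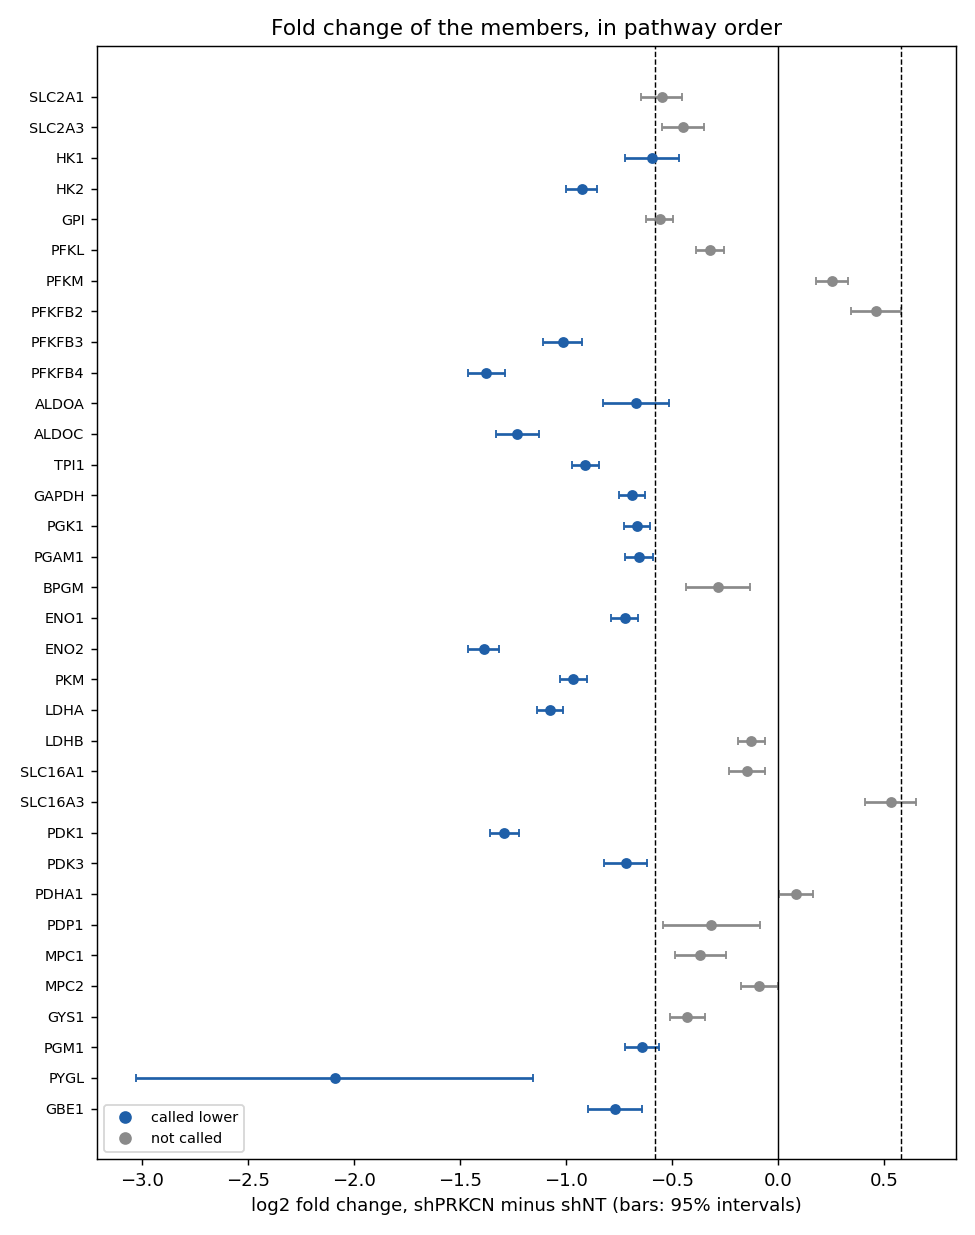
Log2 fold change of the 34 tested genes, shPRKCN minus shNT, in pathway order from glucose uptake at the top to glycogen at the bottom (points, edgeR estimates; bars, 95% intervals; blue, called lower; grey, not called; dashed lines, the fold limits of −0.58 and 0.58). The run of blue points from ALDOA to PKM is broken only by BPGM (−0.28), and the widest bar is that of PYGL, which rests on few counts.

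At the branch to lactate, LDHA was called lower and LDHB was not. LDHA, whose subunit is associated with forming lactate from pyruvate, had 1290.0, 1269.7 and 1249.8 FPKM in shNT against 602, 617 and 613 FPKM in shPRKCN cells. It decreased with no overlap, to 47.4% of the shNT level (log2FC −1.08 ± 0.032, adjusted p = 1.5e-40 by edgeR). LDHB, whose subunit prevails in tissues that take up lactate, had 425, 396 and 416 FPKM in shNT against 379.6, 379.6 and 388 FPKM in shPRKCN cells. It lay slightly lower in every shPRKCN library, with a log2FC of −0.13 ± 0.033 (adjusted p = 7.0e-04 by edgeR). Of the lactate transporters, SLC16A1, which encodes MCT1, had a log2FC of −0.15 ± 0.043 (adjusted p = 0.0027 by edgeR). SLC16A3, which encodes MCT4, the low-affinity transporter known for lactate export, had 6.76, 6.99 and 7.37 FPKM in shNT against 10.2, 10.5 and 10.2 FPKM in shPRKCN cells. It was higher in all 3 shPRKCN libraries than in any shNT library, the largest increase among the members tested (log2FC 0.53 ± 0.062, adjusted p = 2.3e-11 by edgeR), and it stayed inside the fold limit. The 3′ end of its span overlaps CSNK1D, which had 4961, 5137 and 5500 counts in shNT against 5960, 6143 and 6006 in shPRKCN cells. The part of this overlap in the SLC16A3 values was not tested.

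On the way into mitochondria, the kinase genes PDK1 and PDK3 were called lower and the dehydrogenase subunit gene PDHA1 was not. PDK1, a kinase that inactivates pyruvate dehydrogenase, had 34.3, 35.2 and 33.9 FPKM in shNT against 14.8, 13.8 and 14.2 FPKM in shPRKCN cells. It decreased with no overlap, to 40.9% of the shNT level (log2FC −1.29 ± 0.035, adjusted p = 9.8e-43 by edgeR). PDK3, another of these kinases, had 4.60, 4.52 and 4.36 FPKM in shNT against 2.87, 2.70 and 2.74 FPKM in shPRKCN cells, a log2FC of −0.72 ± 0.051. PDHA1, the catalytic alpha subunit that these kinases phosphorylate, had 30.2, 28.03 and 29.6 FPKM in shNT against 31.9, 30.9 and 31.6 FPKM in shPRKCN cells. It had a log2FC of 0.085 ± 0.041 and did not pass 0.05 (adjusted p = 0.072 by edgeR), with an unadjusted 95% interval of 0.0050 to 0.16 on the log2 scale. PDP1, the phosphatase that reverses the kinases, had 1.91, 2.01 and 1.64 FPKM in shNT against 1.45, 1.64 and 1.44 FPKM in shPRKCN cells, and it was the only member whose groups overlapped (log2FC −0.31 ± 0.116, adjusted p = 0.018 by edgeR). The carrier that admits pyruvate to mitochondria is built of MPC1 and MPC2. MPC1 had 9.14, 8.87 and 8.22 FPKM in shNT against 6.67, 6.47 and 7.47 FPKM in shPRKCN cells, a log2FC of −0.37 ± 0.061. MPC2 had a log2FC of −0.090 ± 0.044 that did not pass 0.05 (adjusted p = 0.081 by edgeR), with an unadjusted 95% interval of −0.18 to −0.0030 on the log2 scale.

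Of the glycogen genes, 3 of 4 were called lower, against 10.6% of all genes tested. PGM1, which joins phosphorylated glucose from glycogen to glycolysis, had 39.5, 38.3 and 37.7 FPKM in shNT against 24.4, 25.5 and 25.2 FPKM in shPRKCN cells, a log2FC of −0.64 ± 0.041. GBE1, which adds the branches of glycogen, had 12.1, 10.9 and 11.8 FPKM in shNT against 6.36, 7.27 and 7.04 FPKM in shPRKCN cells, a log2FC of −0.77 ± 0.065. GYS1, the glycogen synthase of most tissues, had 29.6, 30.7 and 29.1 FPKM in shNT against 22.3, 22.9 and 22.05 FPKM in shPRKCN cells and a log2FC of −0.43 ± 0.042, without overlap and inside the fold limit. PYGL, the phosphorylase that releases glucose from glycogen in liver, had only 27, 37 and 20 counts in shNT against 5, 8 and 7 counts in shPRKCN cells. Its log2FC of −2.09 ± 0.478 was the lowest of the members, and at 0.273 FPKM on average in shNT cells its size is poorly fixed. On the log2(FPKM + 1) scale PYGL changed by −0.26, inside the fold limit.

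Paired members, most of them isoenzymes, were next compared within each library as the ratio of their FPKM, which does not depend on the scaling of the library. The other pairs were of transporters, of the carrier subunits MPC1 and MPC2, of PDP1 with PDK1, and of GYS1 with PYGL. Each of the 14 pairs was tested by a 2-sided exact permutation test over the 6 libraries, in which 3 against 3 cannot give a p under 0.1. For all 14 pairs the groups did not overlap (exact permutation p = 0.1, and 0.1 after Benjamini-Hochberg adjustment over the 14 pairs), and no pair could pass 0.05 by this test. How often ratios of other gene pairs separate the groups was not computed. Of all single genes tested, 29.8% lay below in every shPRKCN library. The ratio of LDHB to LDHA was 0.329, 0.312 and 0.333 in shNT against 0.631, 0.616 and 0.633 in shPRKCN cells, a difference of 0.95 ± 0.032 (log2, ± SE). LDHA made up 75.5% ± 0.642 (SD, n = 3) in shNT and 61.5% ± 0.359 (SD, n = 3) in shPRKCN cells of the summed FPKM of this pair. ENO2 relative to ENO1 shifted by −0.67 ± 0.025 (log2, ± SE), and ENO2 made up 17.3% ± 0.318 (SD, n = 3) in shNT and 11.7% ± 0.216 (SD, n = 3) in shPRKCN cells of the enolase FPKM. HK2 relative to HK1 shifted by −0.33 ± 0.045 (log2, ± SE), and ALDOC relative to ALDOA by −0.56 ± 0.081 (log2, ± SE). ENO2, HK2 and ALDOC thus had the more negative log2FC of their pairs.

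Among the regulators, PFKFB3 relative to PFKFB2 shifted by −1.48 ± 0.089 (log2, ± SE), from ratios of 7.58, 6.51 and 7.45 in shNT to 2.39, 2.60 and 2.73 in shPRKCN cells. PFKFB4 relative to PFKFB3 shifted by −0.36 ± 0.061 (log2, ± SE), so that PFKFB4 was no longer the more abundant of this pair in every library. PFKM relative to PFKL differed by 0.58 ± 0.022 (log2, ± SE), SLC16A3 relative to SLC16A1 by 0.68 ± 0.064 (log2, ± SE), and PDK3 relative to PDK1 by 0.57 ± 0.022 (log2, ± SE). The phosphatase gene PDP1 relative to the kinase gene PDK1 differed by 0.98 ± 0.117 (log2, ± SE), although both had negative fold changes. The transporter pair moved least, with SLC2A3 relative to SLC2A1 differing by 0.099 ± 0.035 (log2, ± SE), and MPC2 relative to MPC1 differed by 0.28 ± 0.058 (log2, ± SE). The pairs PFKP with PFKL and GYS1 with PYGL rest on the few counts of PFKP and PYGL, and their differences of −2.37 and 1.66 on the log2 scale turned to 0.24 and −0.14 when 1 was added to each FPKM.

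**Figure D3:**
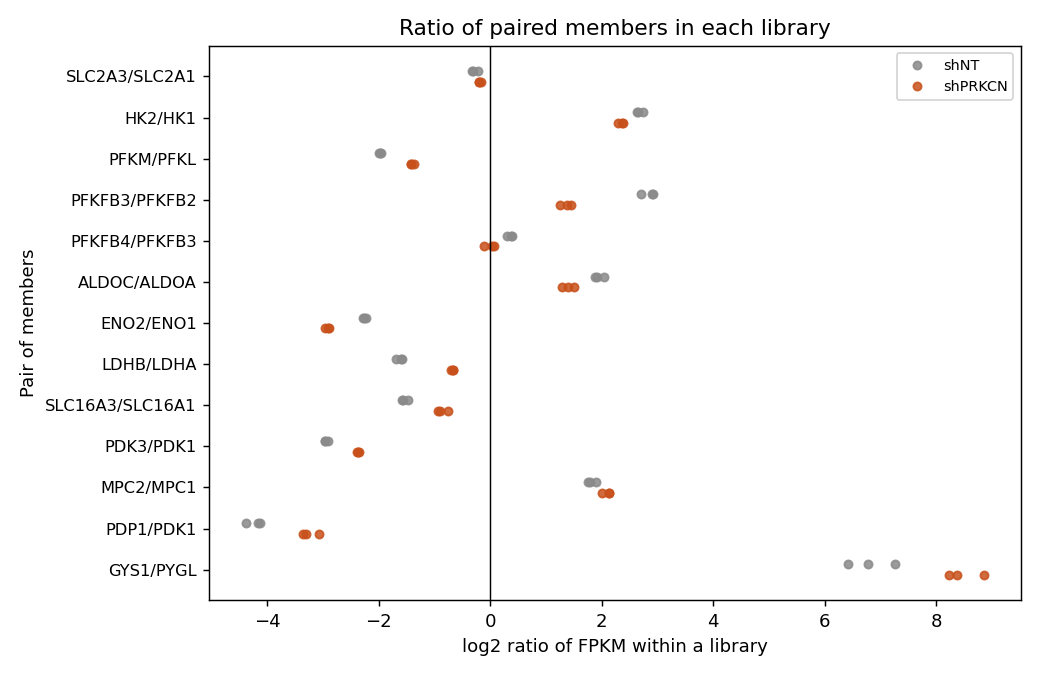
Log2 ratio of the FPKM of paired members within each library (grey, 3 shNT libraries; orange, 3 shPRKCN libraries), with the pair of PFKP and PFKL left out because of its low counts. The groups do not overlap in any of the 13 pairs drawn, and the shift is widest for PFKFB3/PFKFB2 and GYS1/PYGL, the second of which rests on few counts. How often other gene pairs separate the groups was not computed.

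Genes of the same pathways that were not among the 35 were described alongside. Of 67 further genes of glucose and lactate transport, glycolysis, pyruvate and glycogen, 57 were listed and 44 tested, with a median log2FC of 0.094. Of these 44, 3 were called lower (6.82%, against 10.6% of all genes tested) and 3 higher (against 6.15% of all genes). At the adjusted p alone, 6 were lower and 15 higher, beside 27.8% and 26.5% of all genes. The 67 include isoenzyme genes that did not pass the filter on low counts, but also abundant ones. BSG had a mean of 302 FPKM in shNT cells and PDHB, another pyruvate dehydrogenase subunit gene, one of 40.8 FPKM. Of the other glycolysis isoenzymes, 9 were tested and 2 called higher. Among the latter was FBP1, the gluconeogenic bisphosphatase that opposes phosphofructokinase, with 60, 94 and 95 counts in shNT against 229, 237 and 209 counts in shPRKCN cells (log2FC 1.40 ± 0.166). PGAM4, an intronless relative of PGAM1, was called lower (−0.64 ± 0.226, on the log2 scale), and its reads may be shared with PGAM1.

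Of 10 other glucose and monocarboxylate transport genes tested, 1 was called, SLC2A12, a glucose transporter, with 60, 83 and 74 counts in shNT against 176, 103 and 145 counts in shPRKCN cells (log2FC 0.93 ± 0.197). The next largest changes of that list were 0.56 for the urate transporter gene SLC2A9 (adjusted p = 0.0049 by edgeR) and 0.32 for SLC2A6 (adjusted p = 0.276 by edgeR) on the log2 scale. Of 9 other pyruvate genes, PCK2, the mitochondrial phosphoenolpyruvate carboxykinase, was the only one called (−0.63 ± 0.142). PDK2, a further dehydrogenase kinase, had a log2FC of 0.41 and PDPR, the regulatory subunit of the phosphatase, of 0.25, both at an adjusted p under 0.05 by edgeR (3.2e-09 and 1.4e-06) and inside the fold limit. PDK2 thus had the opposite sign to PDK1 and PDK3. Of 16 other glycogen genes, STBD1, which tethers glycogen to membranes, was the only one called (−1.07 ± 0.168), and the next were PPP1R3F at 0.40 (adjusted p = 0.043 by edgeR) and PHKG1 at −0.34 (adjusted p = 0.421 by edgeR) on the log2 scale.

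The pathways that branch from or follow glycolysis had medians near that of all genes. In the pentose phosphate pathway the median log2FC was 0.042 over 8 genes, with 0 called lower and 1 called higher, and the tricarboxylic acid cycle one of 0.028 over 16 genes, with 0 called lower and 1 called higher. The called genes were RPIA (0.60 ± 0.074) and OGDH (0.59 ± 0.038), both just past the fold limit on the log2 scale. PGD, which makes NADPH in the pentose phosphate pathway, had a log2FC of −0.44, RPE of −0.27 and the cycle gene IDH3G of −0.32, all at an adjusted p under 0.05 by edgeR (4.2e-15, 3.6e-04 and 2.4e-07). Among glucose-sensing genes, TXNIP, which restrains glucose uptake and responds to glucose, had a log2FC of −0.25 ± 0.032 (adjusted p = 6.5e-10 by edgeR), ARRDC4 of −0.19 (adjusted p = 0.352 by edgeR) and MLX of 0.099 (adjusted p = 0.049 by edgeR). No test compared these lists with the 35 genes.

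Reads of some members can be shared with copies elsewhere. RefSeq names 112 pseudogenes after 14 of the 35 genes, 65 of them after GAPDH, 13 after PGAM1 and 6 after LDHA, and 0 of these names are among the listed genes. How reads that fit a gene and its pseudogene were assigned is not given in the sources used here. SLC2A14, a near copy of SLC2A3, had at most 3 counts in any library. PFKFB2 shares part of its span with YOD1 (mean of 1915 counts in shNT and 1541 in shPRKCN libraries), PFKM with SENP1 and MPC2 with DCAF6, and without knowledge of the strand setting reads in the overlaps cannot be told apart.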

How the data were processed

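RNA-seq of 3 shNT and 3 shPRKCN libraries was analysed from 2 tables. Per the file headers and values, the authors deposited raw read counts for 21850 genes, 1 column per library, and an FPKM table with the same rows and columns, whose values follow from the counts, the library totals and 1 length per gene. The submitters' processing notes name FastQC, HISAT2, StringTie and the build GRCh38.p14, without roles. The counting program, its treatment of overlapping genes and its strand setting are not given in the sources used here.

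The edgeR package (version 4.0.16, in R 4.3.3) gave TMM scaling and the quasi-likelihood test. Its filterByExpr left 13971 genes, with Benjamini-Hochberg adjustment over all of them. Standard errors are the log2 fold change divided by the square root of F, and separation of groups was read on TMM-scaled CPM. Library totals ran from 35625564 to 37730003 counts, and standard errors of the members from 0.031 to 0.478 (log2). Alternatives were DESeq2 1.42.0, other scalings and filters, a replicate block, omission of single libraries, and limma 3.58.1 on the log2 scale after adding 1 or 0.1 to the FPKM. Groups came from the treatment labels. All 35 members are named, with library values for called ones, and of each other list the 3 tested genes with the largest change, except some that are not reported here. The members and lists were chosen with earlier results of these data known. The steps were tested on simulated data. Python 3.11.15 was used for ratios and promoters.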

Additional observations from a re-analysis of the deposited data

How the results depend on the processing

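The count of members called lower was 16 to 20 under the alternatives that kept a fold limit, DESeq2, glmTreat and the limma fits included, and 18 to 20 with single libraries left out, and the count called higher was 0 in each of these. The counts of 20 with DESeq2 and without the count filter include PFKP. With no fold limit the counts were 29 lower and 3 higher. The members' median log2 fold change ran from −0.67 to −0.62 with single libraries left out, and moved to −0.53 with limma on log2(FPKM + 1) and to −0.54 after genes reaching an FPKM of 1 in fewer than 3 libraries were dropped, scales that compress the changes of low genes. Over 542 fits of the 34 members tested under 16 alternatives, 531 kept direction and call, 10 lost the call, 1 gained it and 0 changed sign. HK1 accounted for most of the losses, and PDK3 changed by −0.54 and PYGL by −0.26 on the log2(FPKM + 1) scale. The ratio difference of PFKP to PFKL turned to 0.24 and that of GYS1 to PYGL to −0.14 with 1 added to each FPKM, and no ratio difference turned with 0.1 added or with a library left out. The summed member FPKM changed by −39.7% to −38.7% with single libraries left out.

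Same-numbered libraries of the 2 groups did not deviate together (correlations of −0.042 to 0.0038, beside −0.053 to 0.067 for unlike numbers). So few values cannot show whether same-numbered libraries shared a culture or a batch. With the replicate number as a block, 19 members were called lower and 0 higher and the median was −0.65. At this depth, the limits fall on PFKP and PYGL, with at most 14 and 37 counts in any library.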
